A study of Homo sapiens with 6 samples.

Results

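The C/EBP and ID transcription regulators were followed in Calu3 cells after siRNA against the bromodomain gene BRD8. The set held 8 genes of the 26364 in the deposited table, chosen by symbol: CEBPA, CEBPB, CEBPD and CEBPG of the C/EBP family, and ID1, ID2, ID3 and ID4. All 8 were found. The set was put together with the BRD8 comparison already known, in particular the low level of CEBPA in control cells, so the members' values in that comparison are given as a description and support nothing by themselves.

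Calu3 is an established cell line from a human lung adenocarcinoma and grows as epithelium. RNA was sequenced single-end from 3 libraries of cells given siRNA against BRD8 and 3 libraries of cells given a negative control siRNA, each labelled with 20 nmol of siRNA and both delivered with the same lipid transfection reagent. The sample titles name Calu3, whereas the shared extraction protocol names HBE cells, and the titles were followed. Only 1 BRD8 reagent was used, and separate cultures are not stated, so each p-value reflects spread among these libraries only, which may be technical.

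C/EBP proteins are basic leucine zipper factors. They bind DNA as dimers with each other or with related zipper proteins, and they drive genes of differentiation, acute-phase response and inflammation in liver, fat, myeloid cells and lung epithelium. ID proteins carry a helix-loop-helix dimerization region without the basic DNA-binding part, so they pair with E proteins and keep them off DNA. ID genes are widely known as direct targets of BMP signalling through SMAD proteins, and they are high in proliferating or undifferentiated cells.

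The promoters of 4 members are shown because they cover both families and 3 of the 4 members called below, with ID1 as the highest member per kb of exon. Each run is the 250 bases before a RefSeq transcription start (build GRCh38.p14), written 5′ to 3′ along the gene, with capitals marking a CCAAT box (CCAAT on either strand, so CCAAT or ATTGG) or a TATA box (TATAAA on the sense strand). The data were aligned to hg19, so these coordinates belong to the sequences and not to the counts. The CEBPA window is chr19:33302535-33302784 on the minus strand, the CEBPB window chr20:50190580-50190829, the ID1 window chr20:31605039-31605288 and the ID2 window chr2:8681806-8682055, the last 3 on the plus strand. CEBPB has 2 windows in the table and the one that holds motif matches is given.
CEBPA: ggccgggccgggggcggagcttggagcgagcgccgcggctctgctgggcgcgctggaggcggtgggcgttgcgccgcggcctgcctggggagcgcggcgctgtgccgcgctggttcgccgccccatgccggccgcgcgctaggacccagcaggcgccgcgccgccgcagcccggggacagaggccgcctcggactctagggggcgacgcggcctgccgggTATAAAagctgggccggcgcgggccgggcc
CEBPB: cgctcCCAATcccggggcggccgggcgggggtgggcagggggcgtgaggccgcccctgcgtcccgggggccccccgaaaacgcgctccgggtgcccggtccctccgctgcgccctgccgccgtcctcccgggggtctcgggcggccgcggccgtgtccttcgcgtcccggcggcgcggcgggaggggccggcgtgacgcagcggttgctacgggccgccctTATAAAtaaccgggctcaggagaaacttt
ID1: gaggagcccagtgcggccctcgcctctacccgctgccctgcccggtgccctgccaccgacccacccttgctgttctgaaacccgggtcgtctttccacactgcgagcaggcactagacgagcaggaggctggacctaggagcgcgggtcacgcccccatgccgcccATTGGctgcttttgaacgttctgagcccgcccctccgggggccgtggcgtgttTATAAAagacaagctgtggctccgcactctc
ID2: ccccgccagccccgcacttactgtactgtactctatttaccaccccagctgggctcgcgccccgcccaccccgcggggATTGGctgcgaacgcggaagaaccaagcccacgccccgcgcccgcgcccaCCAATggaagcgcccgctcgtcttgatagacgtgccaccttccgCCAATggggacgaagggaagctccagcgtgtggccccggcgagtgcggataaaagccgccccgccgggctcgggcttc

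The CEBPA window held a TATA box 30 bases before the start and no CCAAT box. The CEBPB window held a TATA box 29 bases before the start and a CCAAT box at 245 bases. ID1 had a TATA box at 31 bases and a CCAAT box at 84 bases, whereas ID2 had no TATA box and CCAAT boxes at 172, 122 and 78 bases. RefSeq windows matched 7 of the 8 members, with 9 windows in all. A TATA box was found in 4 of the 9, against 6.84% of 34788 promoter windows of the same length. A CCAAT box was found in 5 of the 9, against 32.0% of all windows. The E-box CANNTG, the site that E proteins bind, was found in 2 of the 9 windows, against 61.8% of all. A C/EBP-type motif, TTNNGNAA on either strand, was found in 1 of the 9, against 33.2% of all. The 9 windows were 62.0% to 81.2% GC, and the part of GC content in these shares was not tested. CEBPB and CEBPG each gave 2 windows. Matches to these letters describe the sequence only, and the TATA and CCAAT matches did not overlap.

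BRD8 itself had 1312, 1084 and 1156 normalized counts (reads per gene over the library's size factor) in BRD8 libraries 1 to 3, against 2751, 2928 and 3067 in control libraries 1 to 3. All BRD8 libraries were below all control libraries, at a log2 fold change of -1.30 (SE 0.0904, adjusted p = 1.13e-04). Part of BRD8 shares exonic sequence with KIF20A on the other strand. Counts made without regard to strand cannot separate the 2 genes there, and the strand setting is not given. Library depth was 34427104 to 37896467 reads in the BRD8 libraries and 33640814 to 37081766 in the control libraries. All 10 epithelial markers were measured, with sums of 456643 to 512462 normalized counts in BRD8 libraries and 343869 to 429239 in control libraries. Of these, 4 rose (CDH1, KRT8, CLDN7 and ELF3), none fell and 7 did not overlap between groups. Over all tested genes 19% were called, 10.1% were called higher and 36.8% did not overlap. The epithelial markers had a median of 0.34 on the log2 scale, and their part in the members' values was not tested. No endothelial marker of 5 passed the filter on low values. Endothelial sums were 12.5 to 14.2 in BRD8 libraries and 4.32 to 13.3 in control libraries. Leukocyte markers summed to 18702 to 19212 in BRD8 libraries and 17983 to 19838 in control libraries, mostly from LYZ. Of 8 leukocyte markers 4 were tested, CD68 rose, and PTPRC averaged 2.01 in BRD8 libraries and 3.74 in control libraries. Of 8 fibroblast markers 2 were tested and LUM rose, with sums of 216 to 233 in BRD8 libraries and 218 to 229 in control libraries and COL1A2 and THY1 at 0. Of 6 hepatocyte markers 4 were tested and ALB rose, with sums of 168 to 195 in BRD8 libraries and 79.9 to 106 in control libraries and APOB at 0. Control library 2 stood apart on the second principal component, which held 21.3% of the variance, at -23.3, with the other 5 libraries between -6.05 and 10.4. Without it 5229 genes were called, against 2920 with all 6 libraries, and the same 4 members were called. In bulk RNA, a change in the share of cells of a type and a change in RNA per cell cannot be told apart.

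In the fit across all genes, CEBPA, CEBPB, CEBPD and ID2 were higher in BRD8 libraries, and CEBPG, ID1, ID3 and ID4 did not pass. A gene was called at an adjusted p under 0.05 in limma, which was run on log2(normalized count + 1) for 15354 genes with a mean of at least 10, and all 8 members reached that mean. The 4 of 8 members called stand beside 19% of all tested genes called in either direction and 10.1% called higher. Groups did not overlap for the same 4 members, against 36.8% of tested genes in either direction and 18.9% with the BRD8 libraries above. The members were selected with this contrast in view, so nothing is read from that difference.

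**Figure D1:**
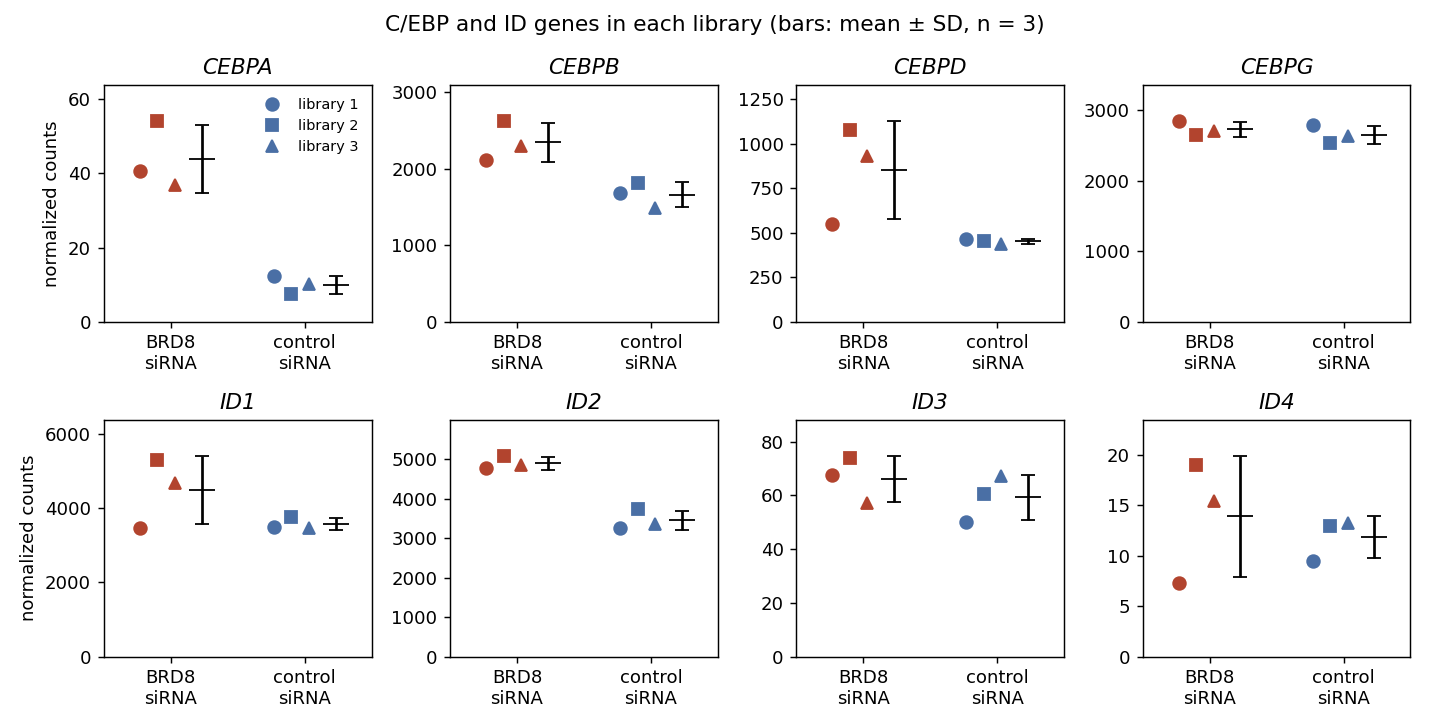
Normalized counts of each member (vertical axes, each from 0) in the 3 BRD8 siRNA libraries (red) and 3 control siRNA libraries (blue), with symbols for library numbers and black bars for mean ± SD. CEBPA, CEBPB, CEBPD and ID2 had no overlap between groups, while BRD8 library 1 lay near the control libraries for CEBPD and ID1.

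CEBPA, the C/EBP factor best known for halting proliferation during differentiation of myeloid, fat, liver and lung epithelial cells, had the largest fold of the set from a very low base. It had 40.5, 54.1 and 36.7 normalized counts in BRD8 libraries 1 to 3, against 12.3, 7.56 and 10.2 in control libraries 1 to 3. These values rest on 39, 57 and 38 reads in the BRD8 libraries and on 13, 7 and 10 reads in the control libraries. Every BRD8 library was above every control library by a wide margin, yet even the highest library held few reads. The mean was 43.8 ± 9.10 in BRD8 libraries and 10.01 ± 2.39 in control libraries (SD, n = 3 each), a ratio of 4.37. The log2 fold change was 2.03 (SE 0.271, 95% interval 1.41 to 2.64, adjusted p = 0.00171), and 24 of the 15354 tested genes, CEBPA included, rose at least as much. The control mean lay at the filter on low values.

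The exon of CEBPA overlaps 2 antisense transcripts of GENCODE over 1141 of its 2631 bases. Neither has a row in the deposited table. Unless strand was used in counting, which is not stated, their reads cannot be told from those of CEBPA. CEBPA-AS1, a noncoding gene that starts beside CEBPA and runs the other way, had 8.32, 15.2 and 12.6 normalized counts in BRD8 libraries and 3.79, 5.40 and 4.07 in control libraries. It was higher in every BRD8 library than in any control library, but its mean was under the filter and it was not tested.

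CEBPB, which mediates the transcriptional response to IL-6 and other inflammatory signals, had 2111, 2619 and 2296 normalized counts in BRD8 libraries 1 to 3, against 1680, 1813 and 1488 in control libraries 1 to 3. The lowest BRD8 library was above the highest control library. Its mean was 2342 ± 257 in BRD8 libraries and 1660 ± 163 in control libraries (SD, n = 3 each), with a log2 fold change of 0.50 (SE 0.105, 95% interval 0.26 to 0.73, adjusted p = 0.0128). The call ended without BRD8 library 2, at a log2 fold change of 0.41 and adjusted p = 0.0509, and without control library 3, at 0.42 and adjusted p = 0.0624. Its exon overlaps CEBPB-AS1 over 231 bases, and that antisense gene had 26.1 to 47.4 normalized counts in BRD8 libraries and 23.4 to 38.9 in control libraries.

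CEBPD, an early acute-phase factor that is induced with CEBPB by cytokines, varied most of the 4 called members within the BRD8 libraries and least within the control libraries. It had 547, 1079 and 930 normalized counts in BRD8 libraries 1 to 3, against 466, 451 and 438 in control libraries 1 to 3. BRD8 libraries 2 and 3 were far above the control libraries, while BRD8 library 1 lay just above them. The mean was 852 ± 275 in BRD8 libraries and 452 ± 14.2 in control libraries (SD, n = 3 each), so the coefficient of variation was 32.2% in BRD8 libraries and 3.13% in control libraries. The log2 fold change was 0.86 (SE 0.215, 95% interval 0.37 to 1.34, adjusted p = 0.0249). It was 1.15 without BRD8 library 1 (adjusted p = 0.00185). The call ended without BRD8 library 2 (0.66, adjusted p = 0.0740), BRD8 library 3 (0.76, adjusted p = 0.0926), control library 1 (0.88, adjusted p = 0.0561) or control library 3 (0.83, adjusted p = 0.0859).

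CEBPG, a short C/EBP protein that lacks a strong activation domain and heterodimerizes with ATF4 and other C/EBPs, stayed close to its control level. It had 2847, 2647 and 2700 normalized counts in BRD8 libraries 1 to 3, against 2787, 2536 and 2630 in control libraries 1 to 3. The groups overlapped. Its log2 fold change of 0.04 (SE 0.0721, adjusted p = 0.717) had a 95% interval from -0.12 to 0.21. CEBPG lies next to CEBPA on chromosome 19.

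ID2, an inhibitor of E proteins that also binds the RB protein, rose in all BRD8 libraries with little spread. It had 4761, 5082 and 4842 normalized counts in BRD8 libraries 1 to 3, against 3264, 3728 and 3364 in control libraries 1 to 3. The groups were clearly apart, with a mean of 4895 ± 167 in BRD8 libraries and 3452 ± 244 in control libraries (SD, n = 3 each). The log2 fold change was 0.51 (SE 0.0759, 95% interval 0.33 to 0.68, adjusted p = 0.00290). ID2 exons overlap ID2-AS1 over 38 bases, and that gene had at most 41.6 normalized counts in any library.

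ID1, a classic BMP target and the highest ID gene here once scaled by exon length, had 3482, 5299 and 4696 normalized counts in BRD8 libraries 1 to 3, against 3496, 3755 and 3461 in control libraries 1 to 3. BRD8 libraries 2 and 3 were above all control libraries, and BRD8 library 1 fell among them. The log2 fold change was 0.31 (SE 0.139, 95% interval -0.00 to 0.62, adjusted p = 0.156). Without BRD8 library 1 it was 0.48 and passed (adjusted p = 0.0170). After correction of each library for exon length and GC content it was 0.17 (adjusted p = 0.347).

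ID3, another inhibitor of E proteins, had 67.6, 74.0 and 57.0 normalized counts in BRD8 libraries 1 to 3, against 50.2, 60.5 and 67.1 in control libraries 1 to 3. The groups overlapped, and the 95% interval of the log2 fold change of 0.16 ran from -0.24 to 0.56. ID4, whose product acts on neural and mammary differentiation and can oppose other ID proteins, had 7.28, 19.0 and 15.5 normalized counts in BRD8 libraries 1 to 3, against 9.48, 13.0 and 13.2 in control libraries 1 to 3. ID4 rested on 7 to 20 reads in BRD8 libraries and 10 to 13 in control libraries. The 95% interval of its log2 fold change of 0.13 ran from -0.74 to 1.00, so a change in either direction within that interval is not excluded.

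**Figure D2:**
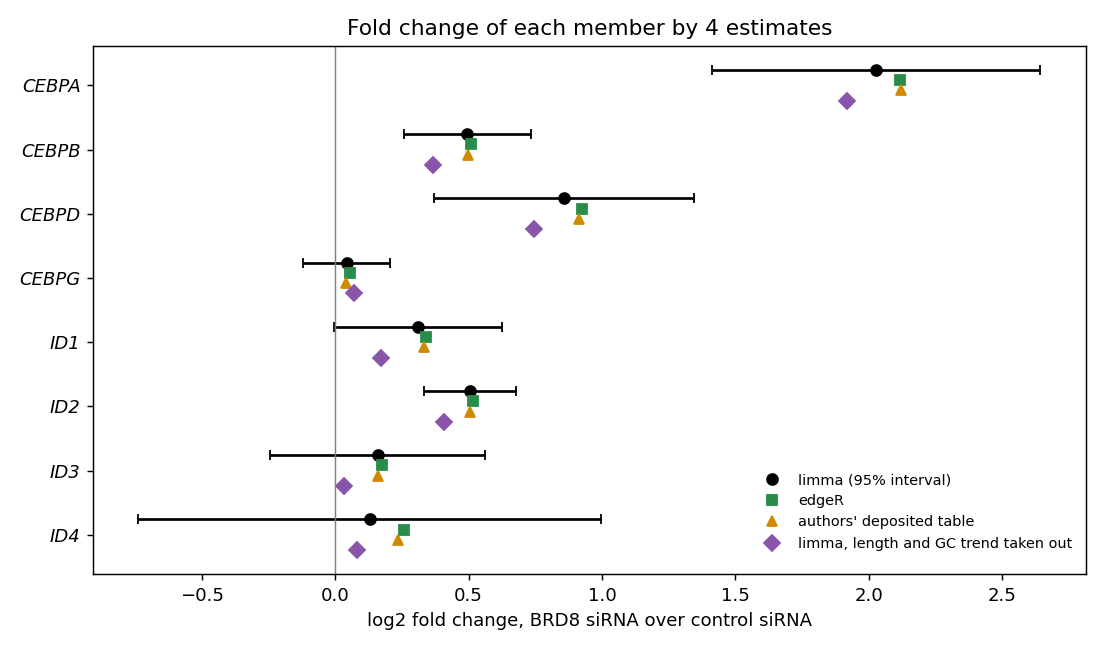
Log2 fold change of each member, BRD8 siRNA over control siRNA (horizontal axis), from limma with its 95% interval (black), from edgeR, from the authors' deposited table, and from limma after a length and GC correction of each library. The 4 estimates of CEBPA lay between 1.92 and 2.12, and those of CEBPG stayed near 0.

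The other estimates gave the same 4 calls. The share of all tested genes called in either direction was 19.3% in edgeR (10.7% higher), 21.3% in DESeq2 (10.8% higher) and 20.4% in the authors' deposited table (10.4% higher), and limma called 8.93% lower. On whole reads recovered from the normalized counts, edgeR gave log2 fold changes of 2.12 for CEBPA, 0.93 for CEBPD, 0.51 for CEBPB and 0.52 for ID2, with adjusted p = 0.00149, 0.0153, 0.0112 and 0.00288. The authors' deposited table gives 2.12 (SE 0.423), 0.92 (SE 0.206), 0.50 (SE 0.119) and 0.50 (SE 0.0895) for these genes in the same order. In the authors' deposited table ID1 has a log2 fold change of 0.33 and an adjusted p of 0.0888. The length and GC correction lowered CEBPB to 0.37, CEBPD to 0.75 and ID2 to 0.41 on the log2 scale, and each was still called.

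The order of the BRD8 libraries was counted for the members only and not over all genes tested. It is therefore not read as particular to them. On the first principal component BRD8 library 2 was also the BRD8 library farthest from the control libraries, at -23.0, against -18.3 and -16.9 for BRD8 libraries 1 and 3. BRD8 library 2 was the highest of the 3 BRD8 libraries for 7 of the 8 members, with CEBPG as the exception, and BRD8 library 1 was the lowest for 5, namely CEBPB, CEBPD, ID1, ID2 and ID4. In the control libraries no library was highest for more than 3 members or lowest for more than 3. BRD8 library 1 was also the BRD8 library with the highest BRD8 level, at 1312 normalized counts, against 1084 and 1156 in BRD8 libraries 2 and 3, and the part of this in the members' values was not tested. The highest BRD8 library exceeded the lowest by 1.97 times for CEBPD and 1.52 times for ID1, but by 1.07 times for ID2.

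**Figure D3:**
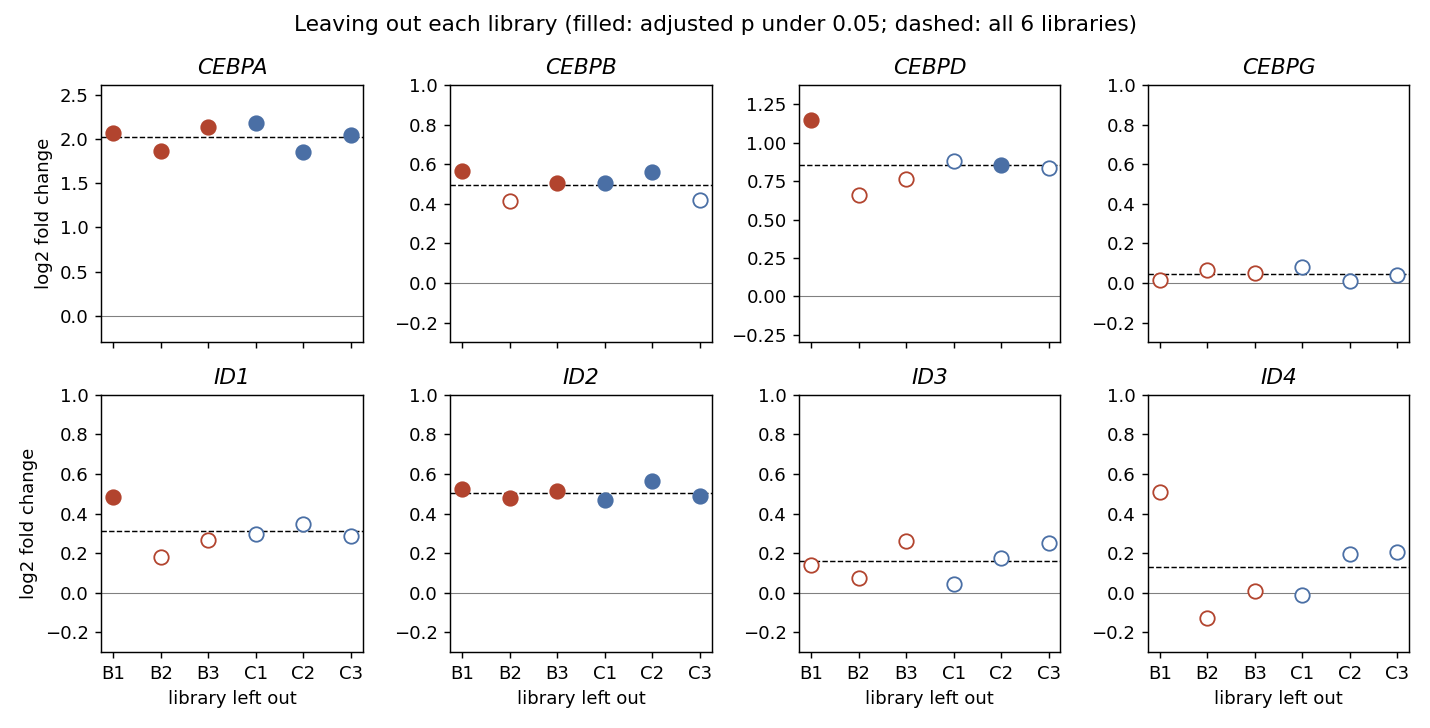
Log2 fold change of each member (vertical axes, which differ between panels) when 1 library is left out, B1 to B3 for BRD8 siRNA and C1 to C3 for control siRNA libraries, with filled points at an adjusted p under 0.05 and the value from all 6 libraries dashed. CEBPA and ID2 were called in all 6 cases, CEBPB in 4, CEBPD in 2, ID1 in 1, and CEBPG, ID3 and ID4 in none.

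Scaled by exon length, so that genes can be compared with each other, the members covered a wide range of levels. In normalized counts per kb of exon, ID1 led with 3643 ± 751 in BRD8 libraries and 2896 ± 130 in control libraries, followed by ID2 with 2220 ± 75.6 and 1566 ± 111. CEBPB came next at 1197 ± 131 per kb in BRD8 libraries and 849 ± 83.5 in control libraries, then CEBPG at 619 ± 23.6 and 601 ± 28.8, and CEBPD at 391 ± 126 and 207 ± 6.50. ID3 was far lower, at 36.8 ± 4.76 per kb in BRD8 libraries and 33.0 ± 4.72 in control libraries. CEBPA had 16.6 ± 3.46 per kb in BRD8 libraries and 3.81 ± 0.91 in control libraries, and ID4 had 5.93 ± 2.56 and 5.07 ± 0.89 (all SD, n = 3 each). The order of neighbours was clear of overlap between libraries except for ID4 and CEBPA in control libraries, where ID4 ranged from 4.04 to 5.64 and CEBPA from 2.87 to 4.68. In BRD8 libraries CEBPA stood above ID4, with 14.0 to 20.5 per kb against 3.10 to 8.09 for ID4.

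**Figure D4:**
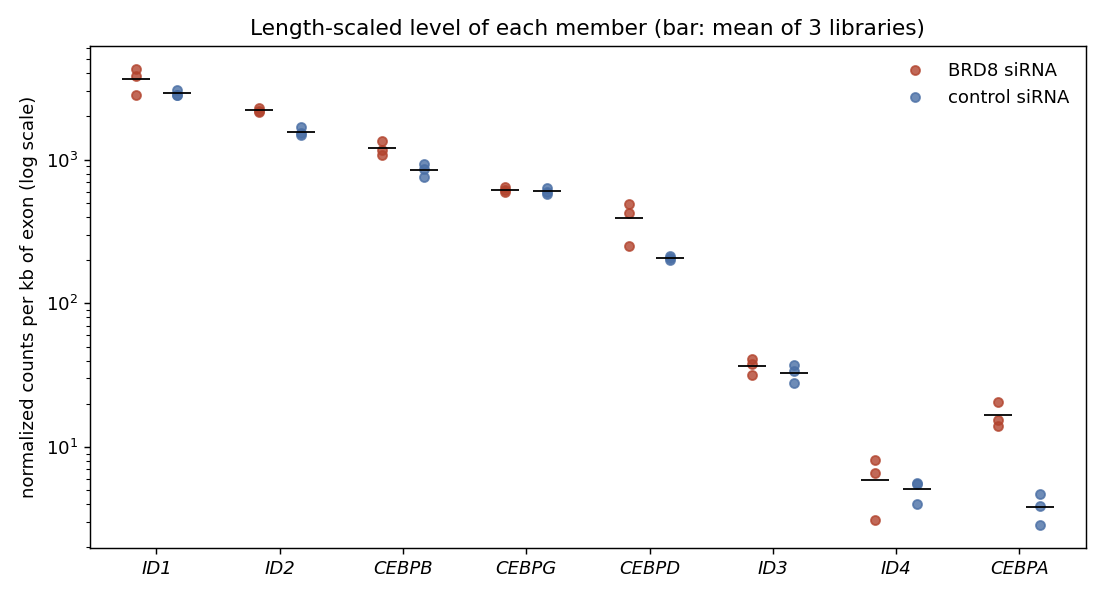
Normalized counts per kb of exon on a log axis for the 8 members, ordered by their control level, with each BRD8 siRNA library in red and each control siRNA library in blue, and bars for the mean of 3 libraries. The order of the members differs between groups in 1 place, where CEBPA rises above ID4 in BRD8 libraries.

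Within the 4 C/EBP genes, CEBPB made up 53.8% ± 0.974 of the summed level per kb in BRD8 libraries and 51.0% ± 2.80 in control libraries. CEBPG made up 28.1% ± 4.02 in BRD8 libraries and 36.2% ± 2.38 in control libraries, and CEBPD 17.3% ± 4.11 and 12.5% ± 0.386. CEBPA, despite its fold change, made up 0.746% ± 0.108 in BRD8 libraries and 0.230% ± 0.0552 in control libraries. The summed C/EBP level was 2224 ± 232 per kb in BRD8 libraries and 1661 ± 86.0 in control libraries. Within the ID genes, ID1 held 61.3% ± 4.47 in BRD8 libraries and 64.4% ± 0.748 in control libraries, and ID2 held 38.0% ± 4.41 and 34.8% ± 0.684. ID3 and ID4 together never reached 1% in any library of either group. Exon lengths came from GENCODE and not from the annotation used for counting, so these shares are approximate.

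Beyond the 8 members, 2 relatives were measured. CEBPE, the C/EBP factor of granulocytes, had no read in any of the 6 libraries. CEBPZ, a CCAAT-binding protein that is not a leucine zipper factor, had 3118, 2955 and 3169 normalized counts in BRD8 libraries and 3172, 3264 and 3130 in control libraries, with a log2 fold change of -0.05 (SE 0.0673, adjusted p = 0.647). Both were looked up after the members' values were known.

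Of 11 dimer partners of C/EBP proteins, 8 were tested, 1 rose and 1 fell, with a median log2 fold change of 0.13 against -0.01 over all genes tested. The share called was 25%, against 19% of all genes tested. FOS, the AP-1 subunit, had 1128, 1295 and 1285 normalized counts in BRD8 libraries and 610, 642 and 669 in control libraries, a log2 fold change of 0.95 (SE 0.0871, adjusted p = 3.88e-04). ATF2, a stress-activated zipper factor, had 1681, 1617 and 1666 in BRD8 libraries and 2535, 2009 and 2394 in control libraries, a log2 fold change of -0.48 (SE 0.0948, adjusted p = 0.00970). The ATF2 call ended without control library 3 (adjusted p = 0.0528), and its exons overlap an antisense transcript. Without control library 2 the list held 4 changed genes, beside 5229 called over all genes tested. Without control library 3 it held 1, beside 1360.

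Among 20 regulators of C/EBP expression or protein, all tested, 3 rose and 1 fell, with a median of -0.07. The 20% called was close to the 19% of all genes tested. TRIB1, a pseudokinase that directs C/EBPα protein to degradation, had 3131, 2971 and 3073 normalized counts in BRD8 libraries and 1920, 1936 and 1872 in control libraries (log2 fold change 0.68, SE 0.0665, adjusted p = 4.72e-04). STAT3, the factor activated by IL-6 that induces CEBPB and CEBPD, rose by 0.35 (SE 0.0779, adjusted p = 0.0148), and the feedback inhibitor SOCS3 rose by 0.47 (SE 0.0927, adjusted p = 0.00948). RPS6KA3, a kinase of the ERK pathway that phosphorylates C/EBPβ, fell by 0.71 on the log2 scale (SE 0.125, adjusted p = 0.00579). IL6 itself had a mean of 999.6 ± 141 in BRD8 libraries and 923 ± 60.2 in control libraries and was not called. The STAT3 call ended without BRD8 library 3 (adjusted p = 0.0721) and that of SOCS3 without control library 3 (adjusted p = 0.0532). Without control library 2 the list held 7 changed genes, beside 5229 called over all genes tested. After the length and GC correction it held 8, beside 4546. With all libraries and no correction 2920 genes were called in all.

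Genes known as C/EBP targets in lung epithelium or in other tissues were mostly higher where they could be measured. Of 30 listed, 16 were tested, 10 rose and none fell, and the median log2 fold change was 0.75. The 62.5% called stand against 19% of all genes tested. CXCL8, a neutrophil chemokine, had 9436, 9617 and 9320 normalized counts in BRD8 libraries and 5155, 5315 and 5113 in control libraries (log2 fold change 0.86, SE 0.0631, adjusted p = 1.34e-04). LCN2, which binds bacterial siderophores, had 17096, 18165 and 15975 in BRD8 libraries and 5345, 8285 and 6227 in control libraries (log2 fold change 1.39, SE 0.144, adjusted p = 6.06e-04). SAA2, an acute-phase protein gene, rose by 0.92 (SE 0.125, adjusted p = 0.00184), but its reads are shared with the near-identical SAA1 and counts of either are uncertain. ALB, the serum albumin gene, had 82.1, 60.7 and 59.9 normalized counts in BRD8 libraries and 5.69, 9.72 and 4.07 in control libraries (log2 fold change 3.25, SE 0.317, adjusted p = 4.68e-04), and its control mean of 6.49 was under the filter on low values.

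The list of C/EBP targets was written with earlier results of these data known, LCN2 and CXCL8 among them, and is therefore no independent evidence of its direction. Of the tested targets 3 passed the filter only through their level in BRD8 libraries, so that they had to differ, and 2 of them, ALB and FGG, were among the 10 called. Of the 9 targets whose mean reached 50, 6 were called, beside 2802 genes called in all at that cut. With the list chosen in this way, nothing is read from that count. The myeloid targets CSF3R, ELANE, S100A8 and the adipocyte target FABP4 had no read in any library.

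**Figure D5:**
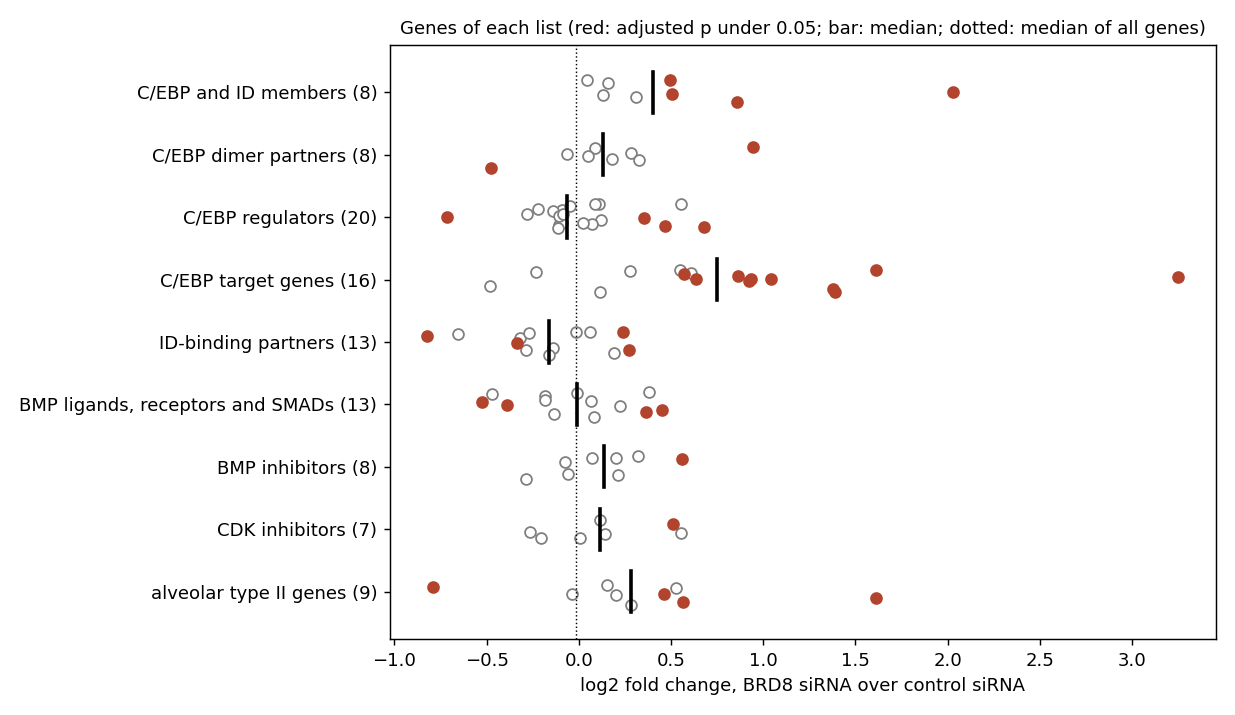
Log2 fold change, BRD8 siRNA over control siRNA (horizontal axis), of every tested gene of the members and of each list (number tested in brackets), with red points at an adjusted p under 0.05, black bars for list medians and a dotted line for the median of all genes. The C/EBP targets had a median of 0.75, and the ID-binding partners one of -0.16.

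Proteins that ID factors bind moved in both directions. Of 20 listed, 13 were tested, 2 rose and 2 fell, with a median of -0.16. This is 30.8% called, against 19% of all genes tested. TCF3, the gene of the E proteins E12 and E47, rose by 0.27 (SE 0.0760, adjusted p = 0.0382), whereas the other E protein genes TCF12 and TCF4 had log2 fold changes of -0.29 and -0.65 and were not called. ETS1, an ETS factor, had 2851, 2571 and 2923 normalized counts in BRD8 libraries and 5407, 4256 and 5134 in control libraries (log2 fold change -0.82, SE 0.102, adjusted p = 0.00127). The circadian bHLH repressors split, with BHLHE40 at 0.24 (SE 0.0638, adjusted p = 0.0302) and BHLHE41 at -0.34 (SE 0.0924, adjusted p = 0.0354). ETS1 was called whichever library was left out. TCF3 was not called without BRD8 library 2 or 3 or control library 1 or 3 (adjusted p = 0.160, 0.110, 0.0768 and 0.127). Neither BHLHE40 nor BHLHE41 was called without any library but control library 2, at adjusted p = 0.0607 to 0.131 and 0.0524 to 0.111. The list held 1 changed gene without BRD8 library 2 or 3 or control library 1 or 3, 2 without BRD8 library 1 and 7 without control library 2. Over all genes tested, 5229 were called without control library 2 and 1360 to 1980 without any other library. Exons of both BHLHE genes overlap antisense genes.

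BMP signalling genes, the route that induces ID1 to ID3 in many cells, did not move together. Of 19 ligands, receptors and SMADs, 13 were tested, 2 rose and 2 fell, with a median of -0.01. This is 30.8% called, against 19% of all genes tested. The ligand BMP2 had 345, 431 and 370 normalized counts in BRD8 libraries and 290, 278 and 267 in control libraries (log2 fold change 0.45, SE 0.109, adjusted p = 0.0216). The ligand BMP4 rose by 0.37 (SE 0.0935, adjusted p = 0.0268). The receptor ACVR2A fell by 0.39 (SE 0.0943, adjusted p = 0.0219). SMAD1, which carries the BMP signal to the nucleus, had 203, 199 and 212 in BRD8 libraries and 318, 289 and 278 in control libraries (log2 fold change -0.53, SE 0.101, adjusted p = 0.00822). SMAD1 was called whichever library was left out, and its exons overlap SMAD1-AS1. Exons of ACVR2A overlap 2 genes on the other strand, ORC4 among them. BMP2 was not called without BRD8 library 2 or 3 or control library 3 (adjusted p = 0.0887, 0.0660 and 0.0940). BMP4 and ACVR2A were called without control library 2 but not without any other library, at adjusted p = 0.0671 to 0.121 and 0.0522 to 0.110. The list held 1 changed gene without BRD8 library 2 or 3 or control library 3, 2 without BRD8 library 1 or control library 1 and 7 without control library 2. Over all genes tested, 5229 were called without control library 2 and 1360 to 1980 without any other library.

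Of 12 BMP inhibitors, 8 were tested, 1 rose and none fell, with a median of 0.14. The 12.5% called was below the 19% of all genes tested. BAMBI, a decoy receptor of the BMP and TGF-beta family, had 2201, 2055 and 1968 normalized counts in BRD8 libraries and 1270, 1615 and 1353 in control libraries (log2 fold change 0.56, SE 0.101, adjusted p = 0.00648). The inhibitory SMAD7 was at 466 ± 49.8 in BRD8 libraries and 373 ± 32.9 in control libraries and was not called (log2 fold change 0.32, adjusted p = 0.0801). Without control library 2 the list held 2 changed genes, beside 5229 called over all genes tested.

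Among genes that passed the filter on low values, the nearest on each side of the called members were not called. Over all genes tested 19% were called, and with so few neighbours nothing is read from this. CEBPA-AS1, which starts beside CEBPA, was under that filter, and its values are given above. Of the nearest genes that passed the filter, WDR88 and CEBPG flank CEBPA, CEBPB-AS1 and LINC01272 flank CEBPB, SPIDR and PRKDC flank CEBPD, and ID2-AS1 and KIDINS220 flank ID2. Their log2 fold changes ranged from -0.45 for PRKDC to 0.39 for LINC01272, with adjusted p = 0.105 and 0.217. PRKDC, the catalytic subunit of DNA-dependent protein kinase, averaged 5523 ± 580 normalized counts in BRD8 libraries and 7665 ± 1858 in control libraries, and its groups overlapped. SPIDR averaged 1006 ± 63.4 in BRD8 libraries and 917 ± 18.3 in control libraries. Every BRD8 library was above every control library for SPIDR, and its log2 fold change was 0.13 (adjusted p = 0.285).

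Across the 6 libraries, the genes whose log2 values followed each member most closely were ranked by Pearson correlation among 13056 genes with a mean of at least 50. All 6 points share the treatment contrast, and the 2 closest of 13056 genes were taken for each member. A high r comes with that selection, so these are descriptions. The nearest to CEBPA were DENND1A, a regulator of Rab35, and the calpain CAPN13, at r = 0.998 and 0.996. CEBPB was followed by IFNL1, an interferon lambda, and the cystatin CST6, at 0.997 and 0.995, and CEBPD by the endocytic recycling gene EHD1 and by C19orf71, both at 0.997. CEBPG was closest to DNHD1 and ZNF490 (0.988 and 0.979), ID1 to VASN and KIAA1191 (0.994 and 0.990), and ID2 to the cofilin phosphatase SSH3 and to ANKRD1 (both 0.999). ID4 was closest to RNF208 and TMEM238 (0.990 and 0.984), and ID3 to 2 uncharacterized genes, LOC102606465 and LOC100506476 (0.956 and 0.949). CST6 had 944 ± 230 normalized counts in BRD8 libraries and 399 ± 86.5 in control libraries, and ANKRD1 had 304 ± 15.3 and 171 ± 17.0 (SD, n = 3 each).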

How the data were processed

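Single-end RNA-seq of 6 Calu3 libraries was used, 3 per siRNA, grouped by sample title. Per the submitters' processing notes the tools were STAR 2.6, featureCounts 1.6.3 of Subread and DESeq2 1.22.1 with build hg19. Annotation, strand setting and filters: not given in the sources used here. Deposited values are a normalized signal, counts divided by 1 size factor per library, beside the authors' comparison. That deposited comparison holds a log2 fold change, a standard error and a test score, and a p-value and adjusted p-value per gene, with a spreadsheet error for the 4756 genes without reads. The sign of the test score is opposite to that of the log2 fold change, and the score was not used. Whole reads were recovered for 100% of values within 0.01 read.

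In R 4.3.3, limma 3.58.1 (trend on) was fitted to log2(value + 1) of the 15354 genes with a mean of at least 10, with Benjamini-Hochberg adjustment and treatment as the only term. Fold changes on this scale understate those of low genes. edgeR 4.0.16 and DESeq2 1.42.0 on recovered reads, other filters, pseudocounts of 0.5 and 5, quantile normalization, a length and GC trend, a block on replicate number and leaving out each library were alternatives. The model was tested on simulated data. Members and lists were chosen with earlier results of these data known. Lists are described by counts and medians, without a set test. Named are the members, BRD8, the called genes of each list, at most 4 by adjusted p (1 if none was called), the 2 genes most correlated with each member, and the neighbours of called members, while other genes were named after their values were seen. Exon lengths, GC content and overlaps came from GENCODE v29, which is on another build, and promoters from RefSeq. Of the symbols 23748 matched directly, 732 through older and 15 through current names, and 1869 did not. Of the 24 genes named from the lists, 8 have exons that overlap another gene.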

Additional observations from a re-analysis of the deposited data

How the results depend on the processing

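CEBPA and ID2 were called higher under every alternative that tested them, CEBPA at log2 fold changes of 1.70 to 2.12 and ID2 at 0.41 to 0.53 where all libraries were kept. CEBPB and CEBPD were called under all 10 alternatives that kept all libraries. Leaving out each library in turn gave 1.86 to 2.18 for CEBPA, 0.41 to 0.57 for CEBPB, 0.66 to 1.15 for CEBPD, 0.18 to 0.48 for ID1, 0.47 to 0.56 for ID2 and -0.13 to 0.51 for ID4, and 2 to 5 members called. With a mean of at least 50, CEBPA and ID4 were not tested and 3 members were called. ID4 was reversed without BRD8 library 2 and without control library 1.

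Changed genes numbered 2920 with all libraries and 1360 to 5229 without each library (the 5229 without control library 2, which stood apart from the others), 832 to 2445 of them higher and 528 to 2784 lower. After the length and GC correction 4546 changed, 2325 higher and 2221 lower, and 8 C/EBP regulators and 2 CDK inhibitors were called. At a mean of at least 50, 2802 genes were called in all and 6 C/EBP targets among them. The ranges without each library were 1 to 4 for dimer partners, 3 to 7 for C/EBP regulators, 1 to 7 for ID-binding partners, 1 to 7 for BMP ligands, receptors and SMADs, 1 to 2 for BMP inhibitors and 2 to 5 for alveolar type II genes. The cause of these differences was not tested. The call for BHLHE41 ended under 1 alternative that kept all libraries (adjusted p = 0.0512).

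Whether replicate numbers pair the libraries is not known, since the labels do not say what they mark. The deviations of same-numbered libraries correlated at -0.08, 0.53 and 0.29, and those of differently numbered libraries at -0.56 to 0.55. With the number as a replicate block 3901 genes changed and 3 BMP inhibitors were called, and no member's call changed. Depth limits CEBPA and ID4, whose libraries held 57 reads or fewer.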

Other observations

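Of 13 alveolar type II genes, 9 were tested, 3 rose and 1 fell, with a median log2 fold change of 0.29 against -0.01 over all genes tested, and 2 of the 13 also stand in the list of C/EBP targets. The share called was 44.4%, against 19% of all genes tested. SFTPD, the surfactant protein D gene, had 30.1, 53.1 and 36.7 normalized counts in BRD8 libraries and 13.3, 13.0 and 10.2 in control libraries (log2 fold change 1.61, SE 0.273, adjusted p = 0.00497). ETV5, an ETS factor of type II cells, had 1941, 1547 and 1600 in BRD8 libraries and 2928, 2794 and 3056 in control libraries (log2 fold change -0.79, SE 0.0975, adjusted p = 0.00123). The water channel AQP5 rose by 0.46 (SE 0.111, adjusted p = 0.0209) and LAMP3, a lamellar body protein gene, by 0.56 (SE 0.132, adjusted p = 0.0195). SFTPD and ETV5 were called whichever library was left out, and both share exons with another gene. AQP5 was not called without BRD8 library 1 or 2 or control library 1 or 3 (adjusted p = 0.0697, 0.0814, 0.0675 and 0.0900). LAMP3 was not called without BRD8 library 1, 2 or 3 or control library 3 (adjusted p = 0.0636, 0.0698, 0.0515 and 0.0673). The list held 2 changed genes without BRD8 library 1 or 2 or control library 3, where 1360 to 1980 were called over all genes tested.

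Of 7 genes of CDK inhibitors, all tested, 1 rose and none fell, with a median of 0.12. The 14.3% called was below the 19% of all genes tested. CDKN2B, the p15 inhibitor of CDK4 and CDK6, had 3707, 3885 and 3959 normalized counts in BRD8 libraries and 3040, 2499 and 2602 in control libraries (log2 fold change 0.51, SE 0.0877, adjusted p = 0.00530). After the length and GC correction 2 of the 7 were called, beside 4546 over all genes tested.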
